A study of Mus musculus with 4 samples.

Results

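Lcn2 and 8 other genes of the interleukin-1 acute phase programme (Cebpb, Cebpd, Lrg1, Il1r1, Socs3, Nfkbia, Nfkbiz and Tnfaip3) were followed through single brain vascular cells of mice fed PLX5622. They are 9 of the 32285 genes in the count files, found by symbol, and each symbol belonged to 1 gene identifier. The genes were picked with earlier results of these same cells in view, among them the higher Lcn2 and Il1r1 counts of endothelial cells on PLX5622. Their endothelial difference between the diets is therefore given as a description, and only measurements in mural cells and differences between vessel zones are tested. The zone differences use the same endothelial counts, so they are not independent of that choice.

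All groups were C57BL6 mice, whose age and sex the labels do not give. Control animals ate a control diet and the others a diet with 1200 ppm PLX5622, an inhibitor of the receptor CSF1R on which microglia depend, each for 1 month. Brain tissue without meninges, cerebellum and olfactory bulbs was dissociated, sorted for the endothelial surface protein CD31 and made into 10x Genomics 3' v3.1 libraries, 2 per diet. Per the labels 3 mice supplied the 2 samples, so libraries may pool or share animals, and p-values measure only the spread between libraries, which may be technical.

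The 4 libraries held 11186648 to 38600208 unique molecular identifiers (UMIs, counted RNA molecules). Droplets with 1000 or more UMIs, 500 or more genes and no more than 10% mitochondrial UMIs were kept as cells, and numbered 1696 and 5509 in control diet libraries 1 and 2, and 3989 and 3670 in PLX5622 diet libraries 1 and 2, with median depths of 3834 to 5921.5 UMIs. Pairs of libraries shared 1 to 6 cell barcodes. Clustering on variable genes, with the 9 genes and their pathway lists kept out of the zone step, and naming by markers gave 13241 endothelial-like, 289 pericyte-like and 227 smooth muscle-like cells. Within the endothelium 671 cells were arterial-like, 2910 carried arterial and capillary markers together, 1853 were arterial-side and 6133 venous-side capillary-like, and 1339 were venous-like. No doublet caller was run, and pericyte-like droplets held much endothelial RNA, as given beside their results. Every list of per-library values below runs in the order control diet 1, control diet 2, PLX5622 diet 1, PLX5622 diet 2.

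Interleukin-1 binds the receptor encoded by Il1r1 and signals through MyD88 to the transcription factor NF-kB. NF-kB induces its own brakes, the inhibitor IkBa (Nfkbia) and the ubiquitin-editing enzyme A20 (Tnfaip3), as well as the nuclear cofactor IkBz (Nfkbiz) and the transcription factors C/EBPb (Cebpb) and C/EBPd (Cebpd), which together drive a second wave of genes. Lipocalin-2 (Lcn2), a secreted protein that binds bacterial iron carriers, and the secreted glycoprotein LRG1 (Lrg1) belong to that wave, and LRG1 is also induced by interleukin-6 family cytokines through STAT3, the pathway that SOCS3 (Socs3) restrains. Brain endothelium is a main site of the interleukin-1 receptor in the brain, and post-capillary venules are where white blood cells adhere and cross.

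Promoter windows of 250 bases before the RefSeq start (GRCm38.p6) were found for 7 of the 9 genes, and not for Cebpd and Nfkbiz. The windows of 4 genes are printed 5' to 3' on the gene's strand, because they cover the receptor and the 2 secreted products, whose counts lay higher on PLX5622 in venous-like cells, and, in Nfkbia, an NF-kB feedback gene whose counts do not separate the diets. Bases that GENCODE M21 marks as exon were left off, and capitals mark motif matches on either strand. The stretches are chr2:32387798-32387850, minus strand, for Lcn2, chr17:56122002-56122196, minus strand, for Lrg1, chr1:40224830-40225079, plus strand, for Il1r1, and chr12:55492648-55492897, minus strand, for Nfkbia.
Lcn2: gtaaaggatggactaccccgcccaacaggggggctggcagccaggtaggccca
Lrg1: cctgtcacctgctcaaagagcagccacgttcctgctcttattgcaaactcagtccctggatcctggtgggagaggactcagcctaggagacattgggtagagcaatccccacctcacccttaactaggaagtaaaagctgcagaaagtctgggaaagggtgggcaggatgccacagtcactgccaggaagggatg
Il1r1: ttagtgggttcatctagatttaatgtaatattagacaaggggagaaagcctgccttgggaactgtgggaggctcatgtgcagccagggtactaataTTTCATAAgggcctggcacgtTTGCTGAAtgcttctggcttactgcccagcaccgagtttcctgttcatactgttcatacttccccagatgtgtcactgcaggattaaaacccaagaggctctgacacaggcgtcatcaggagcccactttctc
Nfkbia: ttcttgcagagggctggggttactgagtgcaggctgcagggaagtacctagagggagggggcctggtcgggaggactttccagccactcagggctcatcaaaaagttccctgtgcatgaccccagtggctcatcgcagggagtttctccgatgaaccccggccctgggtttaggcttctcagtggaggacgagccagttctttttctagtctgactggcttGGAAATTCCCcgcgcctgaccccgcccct
The search used the C/EBP pattern TTNNGNAA, the STAT pattern TTCNNNGAA, the TATAAA box and the NF-kB consensus, and none of the printed matches overlaps another. Il1r1 has 2 C/EBP matches, TTTCATAA from 154 to 147 and TTGCTGAA from 133 to 126 bases before its first start, both matches on the other strand, and 1 more, TTTTGGAA, from 236 to 229 bases before its second start. Nfkbia has 1 NF-kB match, GGAAATTCCC, from 29 to 20 bases before its start. The printed stretches of Lcn2 and Lrg1 hold no match, and 1 C/EBP match of the Lcn2 window lies in the 197 bases left off. Of the genes not printed, Socs3 has 1 STAT match, TTCTTAGAA, from 154 to 146 bases before its start, Tnfaip3 has a C/EBP match, TTACTGAA, from 103 to 96 bases before its first start and an NF-kB match, GGAAATCCCC, from 12 to 3 bases before its second, and Cebpb has none. The bases left off the second Tnfaip3 window hold 2 more C/EBP matches and 1 TATA box. Among all 32851 mouse promoter windows 36.8% hold the C/EBP pattern, 7.02% the STAT pattern, 12.4% the TATA box and 5% the NF-kB consensus, so single matches describe the letters and nothing more.

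The genes lie apart in the genome (GENCODE M21, GRCm38). Lcn2 spans 32384633 to 32388252 and Cebpb 167688915 to 167690418 on chromosome 2, and Cebpd spans 15887286 to 15891031 and Nfkbiz 55811375 to 55838899 on chromosome 16. Il1r1 is on chromosome 1 (40225080 to 40317257), Tnfaip3 on chromosome 10 (19000910 to 19015657), Socs3 on chromosome 11 (117966079 to 117970047), Nfkbia on chromosome 12 (55489410 to 55492647) and Lrg1 on chromosome 17 (56119678 to 56122001).

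Over all endothelial-like cells, counts were summed per library and scaled to CPM, the counts a gene would have among 1000000 UMIs. Il1r1, the receptor, stood at 17.1, 18.1, 26.3 and 28.6 CPM. Lcn2 stood at 1.27, 2.63, 28.3 and 38.7 CPM, a mean of 1.95 ± 0.964 on control diet and 33.5 ± 7.35 on PLX5622 (SD, n = 2 libraries). Lrg1 stood at 0.693, 0.878, 16.7 and 6.96 CPM. In all 3 both PLX5622 libraries lay above both controls, and for Lrg1 the PLX5622 libraries also lay far apart from each other. Of the paired transcription factors, Cebpd stood at 95.7, 104, 190 and 197 CPM, whereas Cebpb stood at 85.5, 92.8, 86.8 and 83.2 CPM and its groups overlapped. Random order alone separates 2 libraries from 2, in either direction, with a probability of 0.3333. The share of all genes that separate is not given here, so non-overlap is a description throughout.

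The inhibitors and the cofactor gene Nfkbiz did not separate the diets in this way. Nfkbia stood at 1543, 1609, 1439 and 1571 CPM, Nfkbiz at 153, 124, 128 and 128 CPM, and Socs3, the STAT3 inhibitor, at 186, 192, 202 and 168 CPM. For these 3 genes the diets overlapped. Tnfaip3 stood at 31.2, 24.3, 32.7 and 33.3 CPM, with both PLX5622 libraries above both controls by a margin smaller than the gap between the controls.

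In the edgeR quasi-likelihood fit over all genes, 3 of the 9 were called higher on PLX5622 at an adjusted p of 0.05 (Lcn2, Cebpd and Il1r1) and 0 lower, where 131 of 12781 tested genes were called in either direction (1.02%) and 94 higher (0.735%). The members were chosen from this contrast, so nothing is read from that count. With 1 library left out the genes called in all numbered 169 to 457, the highest without control diet 2. The log2 differences, PLX5622 minus control, were 3.90 ± 0.24 (SE) for Lcn2, 0.99 ± 0.10 for Cebpd, 0.67 ± 0.11 for Il1r1, 3.81 ± 0.64 for Lrg1 and 0.33 ± 0.11 for Tnfaip3. For Cebpb, Socs3, Nfkbia and Nfkbiz they were -0.034 ± 0.10, 0.013 ± 0.11, -0.023 ± 0.14 and -0.059 ± 0.10. Lrg1 was not called (edgeR adjusted p 0.124) and was called in 6 of 12 alternative analyses, with values from 3.08 to 4.34. Neutrophils also make Lcn2. The 13 neutrophil genes searched summed to 1.04, 0.502, 0.327 and 0.467 CPM in endothelial-like cells, and 7 of them, Ly6g, Elane and Mpo included, were at 0 in all 4 libraries.

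**Figure D1:**
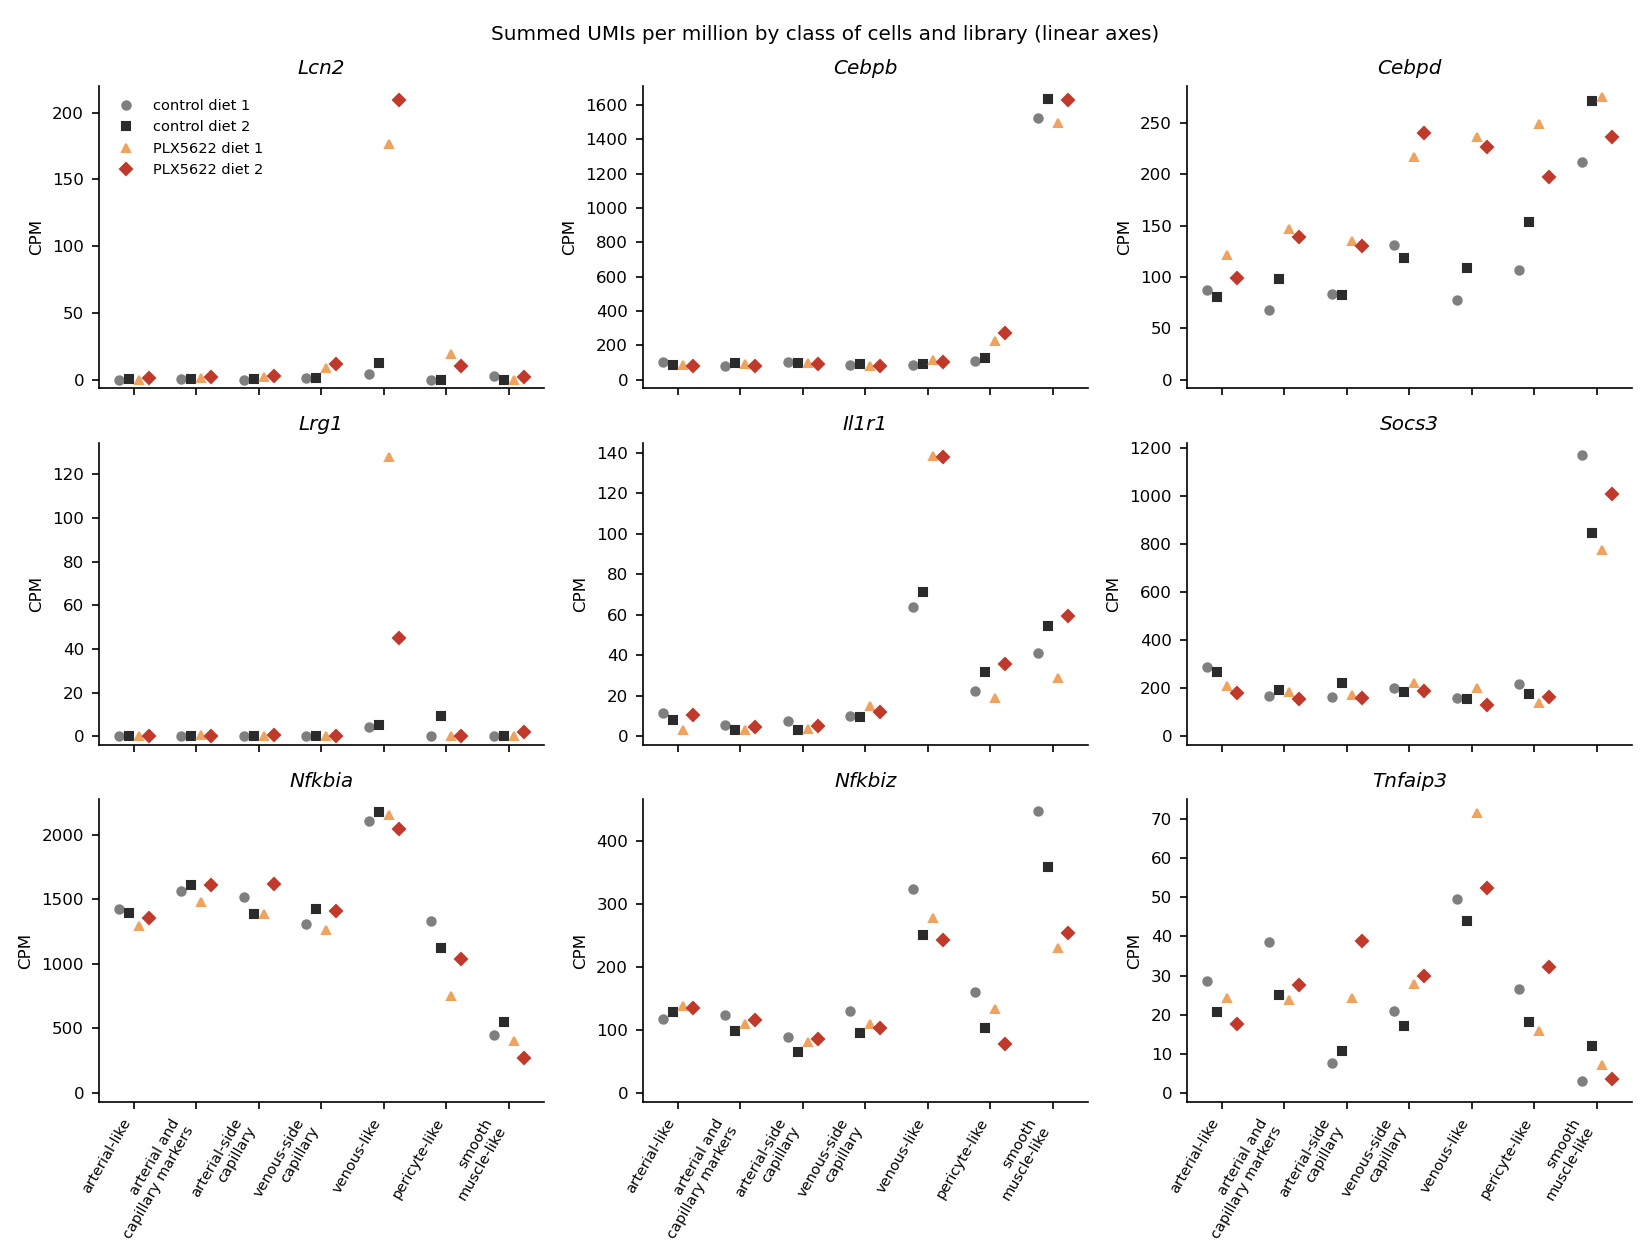
Level of each of the 9 genes (CPM, linear axis) by vessel zone and mural class, with 1 point per library in the colour of its diet. Lcn2, Lrg1 and Il1r1 are highest among endothelial zones in venous-like cells, where both PLX5622 libraries lie above both controls, while Nfkbia and Socs3 overlap between the diets there.

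Along the vessel tree the genes parted into a venous set and a broad set. Zones come from clustering these same cells, so zone levels are described without a test. Venous-like cells held 54.5%, 82.1%, 80.6% and 80.6% of all endothelial Lcn2 UMIs and 15.9%, 17.6%, 13.0% and 14.9% of all endothelial UMIs. For Lrg1 the venous share was 100%, 100%, 99.2% and 96.6%, and for Il1r1 59.5%, 69.0%, 68.0% and 71.7%. Thus the receptor and both secreted products were concentrated in venous-like cells on either diet. The control shares rest on few endothelial UMIs, 11 and 84 of Lcn2 and 6 and 28 of Lrg1 in control diet 1 and 2. Cebpd was not, with 12.8%, 18.4%, 16.1% and 17.1%, nor were Cebpb and Socs3, whose venous shares ran from 16.1% to 18.6% and from 11.5% to 14.4%. Among the NF-kB feedback genes and Nfkbiz the venous share was 19.4% to 23.8% for Nfkbia, 23.4% to 31.9% for Tnfaip3 and 28.1% to 35.7% for Nfkbiz.

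In venous-like cells Lcn2 stood at 4.37, 12.3, 176 and 209 CPM, so each PLX5622 library was more than 10 times above either control. Lrg1 stood there at 4.37, 5.0, 128 and 45.2 CPM. Il1r1 stood at 64.1, 71.0, 138 and 138 CPM, and its PLX5622 libraries hardly differed from each other. Cebpd stood at 77.2, 109, 236 and 227 CPM. Cebpb, whose endothelial total did not separate the diets, stood at 86.6, 89.9, 113 and 104 CPM in venous-like cells, with both PLX5622 libraries above both controls. Nfkbia (2110, 2181, 2153 and 2047 CPM), Nfkbiz (324, 251, 278 and 243 CPM) and Socs3 (157, 157, 201 and 130 CPM) overlapped between the diets. Tnfaip3 stood at 49.5, 44.1, 71.7 and 52.4 CPM and did not overlap.

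Venous-side capillary-like cells, the next zone upstream, showed the same order at lower levels for Lcn2, at 1.26, 1.07, 8.55 and 11.8 CPM. Cebpd there stood at 131, 118, 217 and 240 CPM, also without overlap of the diets. Il1r1 stood at 9.77, 9.67, 15 and 11.8 CPM and Tnfaip3 at 20.8, 17.2, 27.9 and 30 CPM, neither overlapping between the diets. Lrg1 was 0 in both controls and 0.140 and 0.304 CPM on PLX5622. Cebpb went the other way from its venous values, at 85.5, 92.3, 76.5 and 76.8 CPM, with both PLX5622 libraries below both controls.

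Toward the arterial side Lcn2 was lower. It stood at 0, 0.345, 1.54 and 2.51 CPM in arterial-side capillary-like cells and at 0, 0.450, 0 and 1.40 CPM in arterial-like cells, where the diets overlapped. Smooth muscle-like cells, which hold little endothelial RNA, gave 2.94, 0, 0 and 1.75 CPM from 1, 0, 0 and 1 UMIs, so the arterial values were no higher than theirs. Erythroid-like droplets gave 0, 0.641, 0.992 and 2.01 CPM, but endothelial markers took a median of 1.45% to 1.81% of their UMIs. Barcodes under 100 UMIs, which hold free RNA, gave 1.89, 0, 18.2 and 47.4 CPM of Lcn2. Il1r1 overlapped between the diets in arterial-side capillary-like cells (7.58, 3.11, 3.6 and 5.01 CPM) and arterial-like cells (11.4, 8.11, 3.03 and 10.5 CPM). Among the genes called in the endothelium, only Cebpd was without overlap in both zones. It stood at 87.4, 80.2, 121 and 98.8 CPM in arterial-like cells and at 83.4, 82.8, 135 and 130 CPM in arterial-side capillary-like cells. Lcn2 was without overlap in arterial-side capillary-like but not in arterial-like cells.

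Fits within a zone are a description as well. In venous-like cells the log2 differences were 4.22 ± 0.18 (SE) for Lcn2, 4.09 ± 1.05 for Lrg1, 1.26 ± 0.13 for Cebpd and 1.03 ± 0.13 for Il1r1, and edgeR called Lcn2, Cebpd and Il1r1, against 1.25% of 10155 genes tested. In venous-side capillary-like cells they were 3.20 ± 0.35 for Lcn2, 0.92 ± 0.11 for Cebpd and 0.69 ± 0.15 for Tnfaip3, all 3 called, against 1.65% of 11551 genes. Il1r1, at 0.47 ± 0.21 there, was not called. In arterial-side capillary-like cells Tnfaip3 stood at 7.58, 10.7, 24.1 and 38.8 CPM, its widest separation among the zones. It was called there at 1.63 ± 0.31, as was Cebpd at 0.69 ± 0.15, against 0.236% of 9338 genes. In cells with arterial and capillary markers together Cebpd alone was called, at 0.76 ± 0.13, against 0.896% of 10608 genes. In arterial-like cells edgeR called 0 of the 7 that could be tested, against 0.461% of 8462 genes. Cebpd was at 0.39 ± 0.19 and Socs3 at -0.52 ± 0.16 there.

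Whether a diet difference was itself larger in another zone than in capillary-like cells was tested as an interaction within libraries. The genes were picked with results of these endothelial counts known, so their p-values here are not independent evidence. Against capillary, the venous term was called for 12 of 10945 genes (0.110%) and for 0 of the 9. An unadjusted edgeR p under 0.05 was found for 5 of the 9 and for 534 of the 10945 genes. The extra log2 difference in venous-like cells was 0.48 ± 0.12 (SE) for Cebpb (edgeR adjusted p 0.117), 0.56 ± 0.21 for Il1r1 (adjusted p 0.716), 0.31 ± 0.12 for Cebpd (adjusted p 0.745) and 1.01 ± 0.47 for Lcn2 (adjusted p 0.968). Tnfaip3 had -0.42 ± 0.19 (adjusted p 0.968). Without control diet 2 the Lcn2 term was 2.40 and the Cebpd term 0.77, and without control diet 1 the Cebpd term was 0.15. With PLX5622 diet 1 and then PLX5622 diet 2 left out the Tnfaip3 term was -0.72 and -0.042, and without PLX5622 diet 1 the Cebpd term was 0.20. None of these passed the threshold. A proportionally larger Lcn2 response in venous-like cells was thus not shown, although most Lcn2 UMIs are there. DESeq2 and limma-voom were not fitted to the interaction.

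The arterial term was called for 31 of 10945 genes (0.283%), among them 1 of the 9. Socs3 stood at 289, 269, 211 and 179 CPM in arterial-like cells, where both PLX5622 libraries lay below both controls. In venous-side capillary-like cells it stood at 201, 186, 221 and 190 CPM and in arterial-side ones at 162, 220, 172 and 160 CPM, overlapping in each. The arterial difference was lower than the capillary one by 0.55 ± 0.12 on the log2 scale (edgeR adjusted p 0.00958). It was called in 4 of 6 alternatives, with adjusted p from 0.0106 to 0.226, and lost without control diet 2 (adjusted p 0.181) or PLX5622 diet 2 (adjusted p 0.226).

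A higher CPM can mean that more cells hold the transcript or that each such cell holds more. Both were measured, first on all UMIs of a cell and then after every cell was thinned at random to 1000 UMIs, which makes libraries of different depth comparable. Among venous-like cells 3.09%, 4.01%, 25.5% and 28.3% had an Lcn2 UMI, at median depths of 7735, 8690, 6384 and 8124 UMIs. Among arterial-like cells the shares were 0%, 0.352%, 0% and 1.16% at 6249, 6414, 4646 and 7628 UMIs, and in smooth muscle-like cells 2.78%, 0%, 0% and 1.67% at 8827, 10590, 7006 and 9114 UMIs. The venous shares on PLX5622 were above each of these, and those on control diet were not far from them.

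The venous cells with a UMI also held more. They averaged 1.2, 3.0, 5.06 and 7.10 Lcn2 UMIs each, and the highest cell of each library held 2, 24, 68 and 72. Cells with at least 5 Lcn2 UMIs numbered 0 of 162, 3 of 574, 25 of 271 and 32 of 332. Had the Lcn2 UMIs fallen on venous-like cells in proportion to their depth, 3.62%, 11.2%, 68.3% and 81.1% of the cells would have had one. The measured shares on PLX5622 were well under that, so the transcript sat in a minority of venous-like cells in which it was abundant.

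Thinned to 1000 UMIs, 0 of 162 venous-like cells of control diet 1 had an Lcn2 UMI, which allows up to 1.85% of cells with a UMI at this depth, and 1.05% of control diet 2 did (95% Clopper-Pearson interval 0.385% to 2.26%). On PLX5622 the shares were 11.8% (8.22% to 16.3%) and 12% (8.75% to 16.0%). The intervals, which cover counting error only, do not overlap between the diets. At this depth the log2 ratio of the mean level, 4.64, split into 4.51 from the share of cells and 0.13 from UMIs per positive cell. Random (Poisson) sampling of those means alone gives a share term of 4.51, so the split at 1000 UMIs does not tell more cells from more per cell. Thinning to 2000 UMIs gave 5.38 and 1.21, and no thinning gave 2.92 and 1.47, so the split changed with the depth. Without control diet 1 the share term at 1000 UMIs was 3.51. With 2 libraries a diet, an exact permutation of a single value cannot give a two-sided p under 0.3333, so no share was tested on its own.

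**Figure D2:**
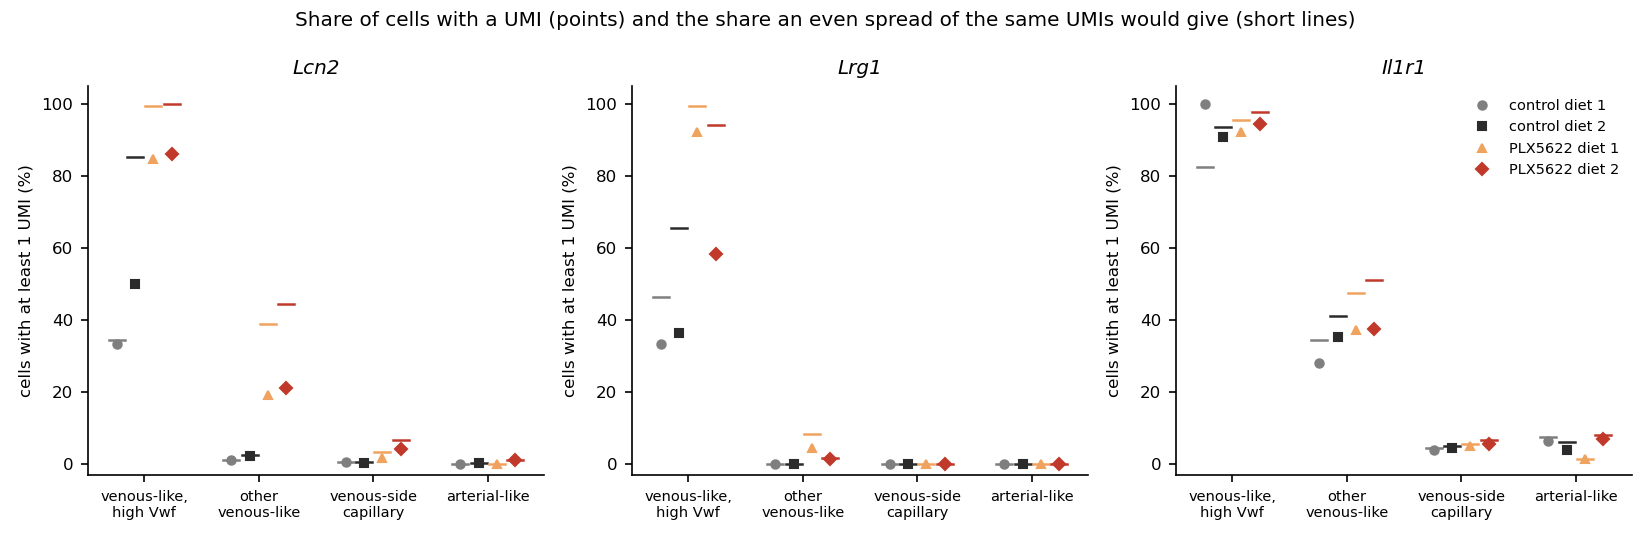
Percent of cells with at least 1 UMI of Lcn2, Lrg1 or Il1r1 without thinning (points, 1 per library) and the percent that an even spread of the same UMIs would give (short lines), in the small venous-like group high in Vwf, other venous-like, venous-side capillary-like and arterial-like cells. In other venous-like cells on PLX5622, 19.2% and 21.3% have Lcn2, under the lines at 38.9% and 44.5%.

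Cebpd, present in many cells, divided differently. Unthinned, 38.3%, 49.1%, 59.0% and 60.2% of venous-like cells had a Cebpd UMI, and positive cells held 1.71, 2.16, 2.93 and 3.61. Even spreading would give 45.6%, 61.5%, 77.5% and 83.2%, so Cebpd was closer to an even spread than Lcn2. Its log2 ratio in venous-like cells split into 0.45 from the share and 0.74 per positive cell without thinning. In venous-side capillary-like cells the thinned share with Cebpd was 10.3%, 9.75%, 17.0% and 16.1%, again without overlap of the diets.

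Il1r1 was seen in 32.1%, 37.5%, 42.4% and 43.7% of venous-like cells unthinned, and in 6.58%, 3.87%, 1.45% and 6.94% of arterial-like cells, so the receptor was seen well above the arterial level on either diet. Positive venous-like cells held 1.69, 1.85, 2.38 and 3.03 Il1r1 UMIs. Its log2 ratio split into 0.31 from the share and 0.61 per positive cell without thinning.

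Lrg1 was the sparsest of the 9 genes in venous-like cells. It was seen in 1.85%, 1.57%, 12.9% and 7.53% of venous-like cells, with 2.00, 3.11, 7.26 and 5.76 UMIs per positive cell, and the UMIs numbered 6, 28, 254 and 144. Outside venous-like cells the whole endothelium gave 0, 0, 2 and 5 Lrg1 UMIs. Even spreading over venous-like cells would give 3.62%, 4.74%, 57.6% and 33.8%, so Lrg1 too sat in few cells with many copies.

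**Figure D3:**
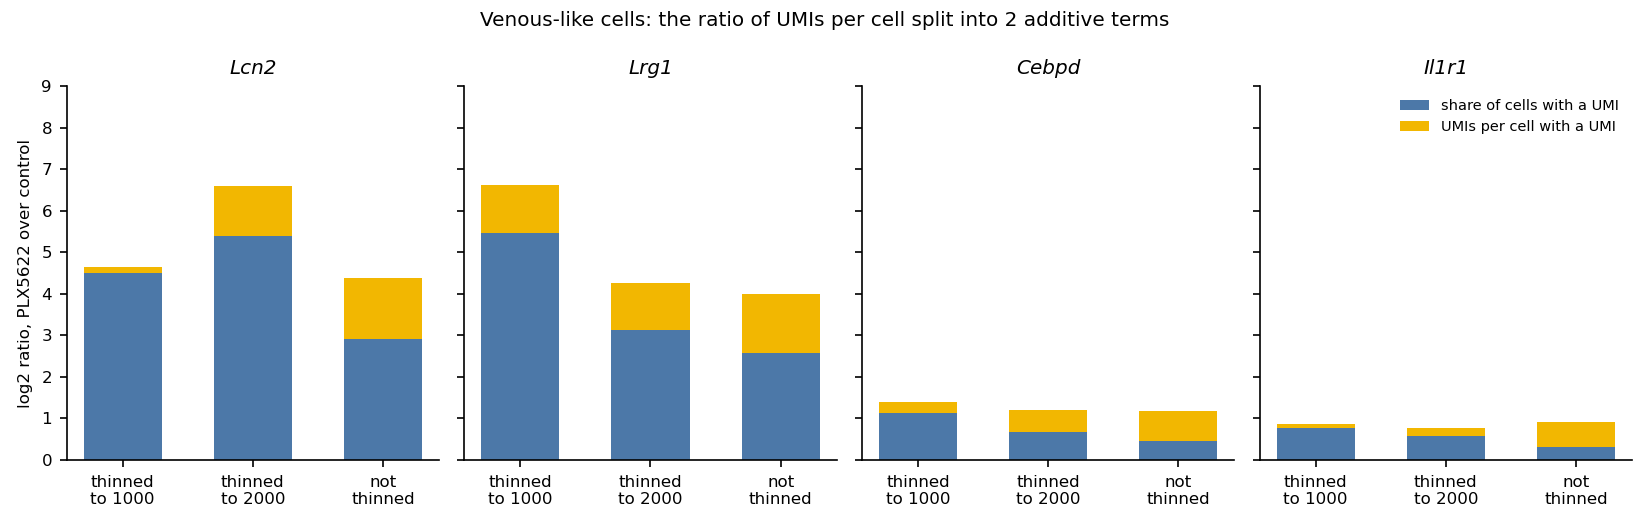
Log2 ratio of PLX5622 to control of Lcn2, Lrg1, Cebpd and Il1r1 UMIs per venous-like cell, divided into stacked bars for the ratio of the share of cells with a UMI and the ratio of UMIs per positive cell, at 1000 UMIs, at 2000 UMIs and without thinning. For Lcn2 the per-cell term is 0.13 at 1000 UMIs, where sampling alone fixes the split, and 1.47 without thinning.

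Much of the venous signal came from one small group of cells, a split added after the data were seen. The finer cluster with the highest fold of venous markers held 93 cells, 9, 22, 26 and 36 per library, which is 5.56%, 3.83%, 9.59% and 10.8% of venous-like cells. It held 66.7%, 79.7%, 63.6% and 72.0% of venous Lcn2 UMIs, 91.3% to 100% of venous Lrg1 UMIs and 22.4% to 47.6% of venous Il1r1 UMIs. So on PLX5622 a minor venous group, clustered without these genes, carried most of the venous Lcn2 and nearly all of the venous Lrg1. The control shares rest on few UMIs. In control diet 1 and 2 the group held 4 of 6 and 55 of 69 Lcn2 UMIs, and 6 of 6 and 27 of 28 Lrg1 UMIs. The group was picked by venous markers that include Icam1, Vcam1, Selp and Ackr1. These are also counted below among induced endothelial NF-kB targets, so its Lcn2 and Lrg1 levels are a description.

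Within it Lcn2 stood at 43.8, 184, 1117 and 1063 CPM and was seen in 33.3%, 50%, 84.6% and 86.1% of cells, with 1.33, 5.0, 10.1 and 15.5 UMIs in each positive cell. Lrg1 stood at 65.7, 90.2, 1168 and 308 CPM, Il1r1 at 219, 297, 529 and 463 CPM and Cebpd at 208, 321, 357 and 525 CPM, none overlapping between the diets. Il1r1 was seen in 100%, 90.9%, 92.3% and 94.4% of these cells, so nearly all of them showed the receptor on either diet, with 2.22, 4.45, 4.38 and 6.15 UMIs per positive cell. Nfkbiz ran opposite, at 1215, 745, 453 and 425 CPM. The group was larger on PLX5622, and its marker Ackr1, an atypical chemokine receptor of venules, stood at 32.9, 160, 1258 and 520 CPM against 1730, 1075, 2104 and 1729 CPM for its marker Vwf. Whether its cells are the same state on both diets was not tested.

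In the other venous-like cells Lcn2 stood at 1.56, 2.64, 71.2 and 68.4 CPM, seen in 1.31%, 2.17%, 19.2% and 21.3% of cells with 1.00, 1.17, 2.70 and 2.97 UMIs each. Il1r1 stood there at 53.0, 58.3, 94.8 and 84.1 CPM and Cebpd at 67.8, 96.9, 223 and 177 CPM. Lrg1 stood at 0, 0.189, 12.3 and 1.83 CPM. All 4 genes lay higher in both PLX5622 libraries outside the small group as well, an order that is a description only.

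Venous-like cells with an Lcn2 UMI carried more of the other genes, in each library. Among venous-like cells 5, 23, 69 and 94 had an Lcn2 UMI and 157, 551, 202 and 238 had none. The former were deeper, with median depths of 13820, 14830, 7416 and 8953 against 7416, 8497, 6216 and 7642 UMIs, and the part of depth in what follows was not tested. Lrg1 stood at 63.0, 59.3, 425 and 135 CPM in cells with Lcn2 and at 1.53, 1.52, 17.3 and 1.86 CPM in those without. Il1r1 stood at 252, 196, 293 and 278 against 55.0, 63.0, 80.5 and 69.9 CPM, and Cebpd at 158, 249, 386 and 397 against 73.3, 99.9, 180 and 144 CPM. On the log2 scale all 8 genes were higher in the cells with Lcn2 in 4 of 4 libraries, by 4.61 to 6.18 for Lrg1, 1.64 to 2.20 for Il1r1, 1.1 to 1.46 for Cebpd and 1.01 to 1.55 for Tnfaip3. The share of all genes that were higher in those cells is not given here. This count and those below are therefore a description and say nothing particular to these genes. The link was present on control diet too, from few cells in control diet 1. For Nfkbiz the values were 1.97, 1.72, 0.25 and 0.89 and for Socs3 0.91, 1.09, 0.19 and 0.17, and no difference between the diets was tested. A list of dissociation-sensitive immediate early genes differed by 0.13, 0.028, -0.28 and -0.18 between the same cells.

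Part of this link was the small venous group. In the other venous-like cells, those with Lcn2 exceeded those without by 0.40, 0.42, 1.16 and 0.99 (log2) for Cebpd, 2.15, 0.53, 1.23 and 1.27 for Il1r1, 1.64, 0.50, 0.58 and 1.13 for Tnfaip3 and 0.41, 0.61, 0.10 and 0.47 for Nfkbia. These 4 stayed higher in 4 of 4 libraries, from 2, 12, 47 and 63 cells with Lcn2. Cebpb, at -0.91, 0.056, -0.0018 and 0.30, was higher in 2 of 4, and Nfkbiz (-0.23, 1.18, 0.012 and 0.61) and Socs3 (1.01, -0.49, 0.10 and 0.24) in 3 of 4. Within the small group Lrg1, Nfkbia, Tnfaip3 and Cebpb were higher in 4 of 4 libraries, and Cebpd, Il1r1, Socs3 and Nfkbiz in 3 of 4. Outside venous-like cells Cebpd was higher by 0.11, 1.48, 1.02 and 1.17 in endothelial-like cells with Lcn2, and Nfkbia by 0.036, 0.12, 0.086 and 0.15. Cebpb, at -1.68, 0.55, 0.48 and -0.079, was higher there in 2 of 4 libraries. Il1r1 and Tnfaip3 were also higher in 2 of 4, and Socs3 and Nfkbiz in 3 of 4. No cell outside venous-like cells held both Lcn2 and Lrg1.

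**Figure D4:**
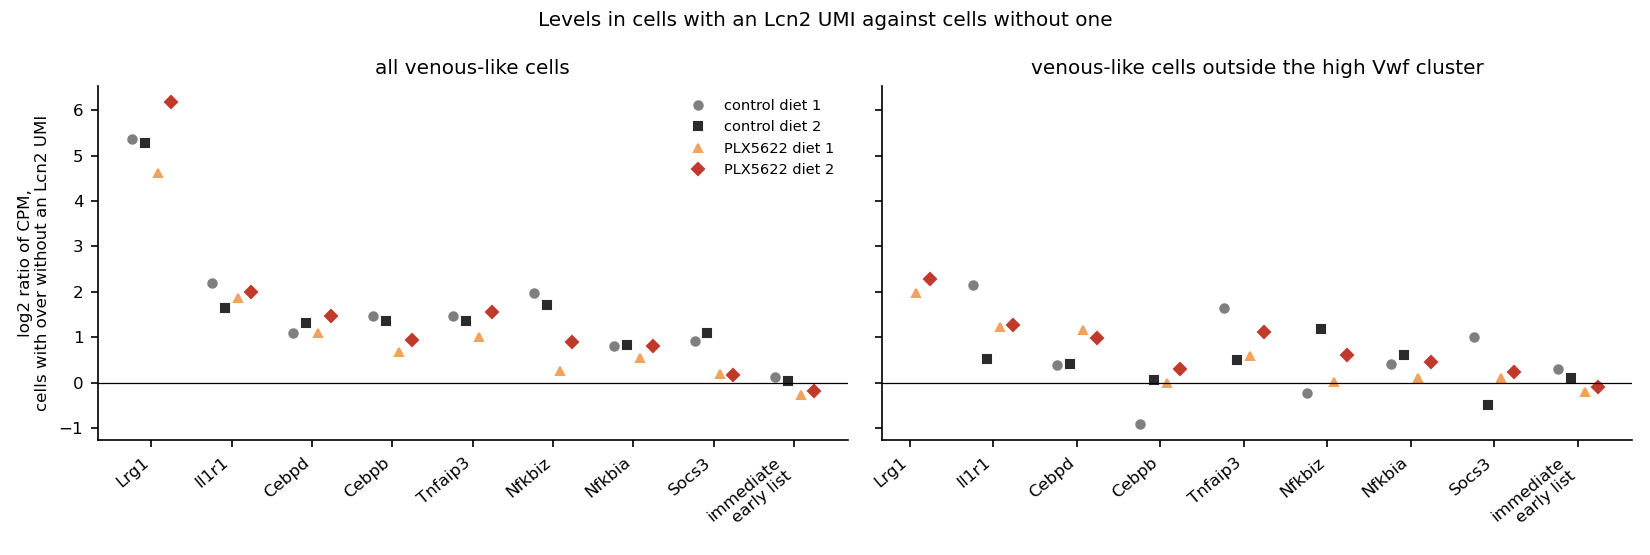
Log2 difference in level between venous-like cells with and without an Lcn2 UMI for the other 8 genes and a list of immediate early genes, 1 point per library (left all venous-like cells, right those outside the small group with the highest fold of venous markers). The 8 genes lie above 0 in 4 of 4 libraries on the left, and on the right Lrg1 has no control points because those control cells with Lcn2 held no Lrg1 UMI.

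The genes whose levels ran most like Lcn2 across 28 sums (4 libraries by 7 vessel classes) were ranked by Pearson's r of log2(CPM + 1), among genes with a mean of at least 20 CPM. They were Kbtbd11 (0.741), Hif1a (0.734), Tgs1 (0.701), Rnase4 (0.693) and Dennd4c (0.692). The 28 sums share libraries, so r is a description. Lrg1, too low to be ranked, had 0.726, Il1r1 had 0.598 (rank 30 of 6505), Cebpd 0.476 (rank 102) and Tnfaip3 0.474 (rank 106). Nfkbiz, Nfkbia, Cebpb and Socs3 had 0.292, 0.272, -0.105 and -0.285.

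The rest of the pathway, from lists chosen with earlier results known, moved little over all endothelial-like cells. Of 13 other tested genes for interleukin-1 ligands, receptors and adaptors, 0 rose and 0 fell in edgeR, with a median log2 difference of 0.037, against 0.0033 over all genes. None of 18 genes for NF-kB subunits, kinases and inhibitors was called (median -0.015), nor any of 15 interleukin-6 and STAT3 genes (0.041), 4 other C/EBP genes (0.0081), 6 tumour necrosis factor genes or 6 lipocalin-2 receptor and iron genes. The secreted and adhesive outputs differed: where 0.735% of all tested genes were called higher, 2 of 4 other acute phase genes rose, complement C4b by 3.66 ± 0.54 (SE) and the copper-carrying ferroxidase Cp by 0.55 ± 0.10, with a list median of 1.13. Of 13 induced endothelial NF-kB targets 6 rose and 0 fell (median 0.81), among them the prostaglandin synthase Ptgs2 by 1.54 ± 0.13, the adhesion molecule Sele by 5.88 ± 0.78 and the chemokine Cxcl1 by 0.78 ± 0.11. Immediate early genes summed to 57550, 58520, 54660 and 48240 CPM, with 2 of 31 called higher, the chaperones Hspa1b and Hspe1.

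In venous-like cells alone 3 of 3 tested acute phase genes rose, Serpina3g by 2.48, C4b by 4.39 and Cp by 1.31 on the log2 scale. So did 7 of 12 induced NF-kB targets, where 0.955% of 10155 genes were called higher. These lists were chosen with results of the same cells known, so the counts are not independent evidence. From the signalling lists 1 gene each was called there: Bcl3, a nuclear IkB protein, at 1.17 ± 0.26 (SE), Stat3 at 0.48 ± 0.12 and the ferritin heavy chain Fth1 at 1.07 ± 0.13, 3 genes named after their values were seen. Of the 13 interleukin-1 genes 0 were called.

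Mural cells were not used to choose the genes, so their diet contrast was tested. Pericyte-like droplets held much endothelial RNA, so their contrast is not independent of the endothelial values that chose the genes. In pericyte-like cells edgeR called 0 of 6757 genes (0%), with 382 at an unadjusted p under 0.05, and DESeq2 and limma-voom called 0 each. Of the 9, 7 had enough counts to be tested and 0 were called by any of the 3 tools. Cebpb stood at 107, 128, 226 and 274 CPM, both PLX5622 libraries above both controls, with a log2 difference of 1.11 ± 0.21 (SE, edgeR adjusted p 0.158), rank 3 of 6757 by p. It passed the threshold in 4 of 12 alternatives, with adjusted p from 3.1e-05 to 1.0 and values from 0.91 to 1.32, the lowest p without PLX5622 diet 1. Cebpd stood at 107, 154, 249 and 198 CPM (0.72 ± 0.22, edgeR adjusted p 0.841) and Nfkbia at 1331, 1120, 749 and 1036 CPM (-0.40 ± 0.17, adjusted p 0.841).

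Lcn2 in pericyte-like cells was 0, 0, 19.1 and 10.1 CPM and Lrg1 0, 9.03, 0 and 0 CPM, both too low to test. These droplets are mixed: endothelial markers took a median of 1.86%, 1.81%, 1.04% and 1.92% of their UMIs, against 2.60% to 2.68% in endothelial-like cells, and erythroid markers summed to 22.2, 67.7, 169 and 15190 CPM, whose part in the result was not tested. Among the 9, 32, 39 and 27 pericyte-like cells with under 0.5% endothelial marker UMIs Lcn2, Lrg1 and Tnfaip3 were 0 in all 4 libraries. These cells held only 29838, 113715, 90334 and 110923 UMIs, so Lcn2 levels such as 19.1 and 10.1 CPM could go unseen. Cebpb there stood at 335, 352, 498 and 947 CPM and Cebpd at 134, 158, 399 and 478 CPM, still without overlap, while Nfkbia stood at 101, 211, 188 and 252 CPM and overlapped. The smooth muscle gene Acta2 stood in these cells at 0, 0, 44.3 and 1082 CPM and thus moved with Cebpb in PLX5622 diet 2, and its part in the result was not tested. Summed immediate early genes over all pericyte-like cells were 41390, 40630, 30590 and 33600 CPM, lower on PLX5622. In edgeR 14 of 30 had an unadjusted p under 0.05 and 0 were called. Among the cells with under 0.5% endothelial marker UMIs the sums were 14310, 20930, 15620 and 21010 CPM and overlapped between the diets. The part of these genes in the result was not tested.

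In smooth muscle-like cells endothelial markers took a median of 0.0352% to 0.0487% of a cell's UMIs. Summed over cells they came to 1041, 3629, 2066 and 1276 CPM and erythroid markers to 8.83, 6220, 35.9 and 52.5 CPM, highest in control diet 2, and their part in the results was not tested. There edgeR called 0 of 6389 genes (0%), with 291 at an unadjusted p under 0.05, limma-voom called 0 and DESeq2 called 1, which is none of the 9. Cebpb overlapped between the diets at 1524, 1632, 1493 and 1628 CPM (log2 difference 0.019 ± 0.16, SE), and Socs3 stood at 1171, 846, 776 and 1007 CPM (-0.13 ± 0.18). Nfkbiz stood at 447, 358, 230 and 254 CPM, a difference of -0.68 ± 0.18 (edgeR adjusted p 0.618), rank 6 of 6389 by p. Nfkbia stood at 447, 547, 405 and 271 CPM (-0.54 ± 0.19, adjusted p 0.956). Both lay lower in both PLX5622 libraries and neither passed the threshold. Without control diet 1 Nfkbia passed (adjusted p 0.00309), without control diet 2 Nfkbiz passed (adjusted p 0.00557), and with at most 5% mitochondrial UMIs the Nfkbia difference was 0.15. The 5% limit left 6, 22, 11 and 14 cells, so not every library reached the 20 cells planned for a test. Among cells with under 0.5% endothelial marker UMIs the difference was -0.73 for Nfkbia (edgeR adjusted p 0.0228) and -0.63 for Nfkbiz (edgeR adjusted p 0.144). Cebpd (212, 271, 276 and 236 CPM) and Il1r1 (41.2, 54.3, 28.8 and 59.5 CPM) overlapped, and Lcn2 was 2.94, 0, 0 and 1.75 CPM.

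**Figure D5:**
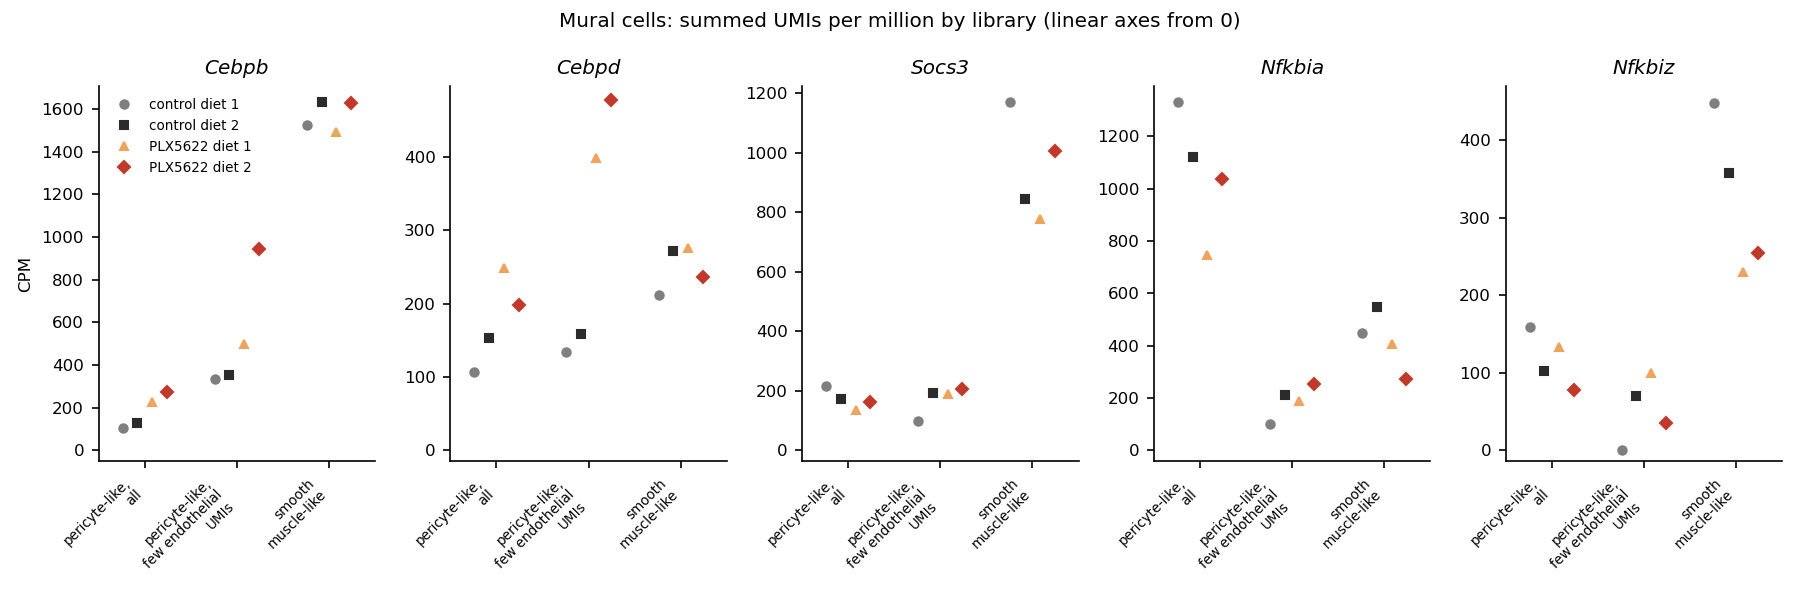
Level (CPM, linear axis) of Cebpb, Cebpd, Socs3, Nfkbia and Nfkbiz in pericyte-like cells, in pericyte-like cells with under 0.5% endothelial marker UMIs and in smooth muscle-like cells, 1 point per library. Cebpb and Cebpd lie higher in both PLX5622 libraries in pericyte-like cells, and Nfkbiz and Nfkbia lower in smooth muscle-like cells, none of them past the adjusted threshold.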

How the data were processed

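The authors deposited UMI counts, whole numbers that are not normalized per the file headers, for all barcodes that had any count. The submitters' processing notes name Cell Ranger 6.0.1, Seurat 4.0 and 2 builds, mm10 and mm39, and the sources used here do not say which build the counts rest on. Gene positions come from GENCODE M21 and promoter letters from RefSeq (GRCm38.p6).

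Cells were kept with at least 1000 UMIs, 500 genes and at most 10% mitochondrial UMIs, and clustered with scanpy 1.11.5 (2000 variable genes, 30 components, 15 neighbours, Leiden resolution 0.5). Endothelial-like cells were clustered again without the 9 genes, their pathway lists and other response genes. A class other than endothelial-like needed at least 3 markers with a fold of at least 4, each detected in at least 25% of cells. Endothelial-like clusters had all endothelial markers detected in at least 25% of cells and no other class named. Zones took the marker list with the largest median fold, if at least 1.1 and not outnumbered by other lists among the top 10 genes. Capillary clusters outnumbered by arterial markers were named for both. Cells are not replicates, so their counts were added up within each library and class and fitted with edgeR 4.0.16 (R 4.3.3) quasi-likelihood tests with TMM, its low-count filter and Benjamini-Hochberg adjustment at 0.05. Levels in the text are CPM (counts scaled to 1000000 UMIs of each sum) without TMM factors. The zone interaction kept the library as a block. DESeq2 1.42.0 and limma-voom 3.58.1 were alternatives, along with other scaling, no filter, a stricter mitochondrial limit, cells with few endothelial UMIs and each library left out. The tests were tried on simulated counts with known changes. Shares of cells used random thinning to 1000 UMIs.

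The 9 genes and all lists were chosen with earlier results of these data known. Genes named outside the 9 are those called from each list in the endothelial or mural fits, at most 3 by smallest p, and the 5 genes most like Lcn2, and exceptions are marked.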

Additional observations from a re-analysis of the deposited data

Results flagged for a closer look

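The diet difference of Socs3 was lower in arterial-like than in capillary-like cells, with an interaction term of -0.55 on the log2 scale (SE 0.12, edgeR adjusted p 0.00958 over 10945 genes). It drew attention because the difference between the zones was itself tested, though in the endothelial counts whose earlier results were known when the genes were picked. Both PLX5622 libraries lay below both controls in arterial-like cells, and the result was lost without control diet 2 or without PLX5622 diet 2.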

How the results depend on the processing

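Over all endothelial-like cells Lcn2 (3.67 to 4.82), Cebpd (0.89 to 1.11) and Il1r1 (0.60 to 0.78, log2) were called in 12 of 12 alternatives. Small differences changed sign when a library was left out, with Cebpb from -0.13 to 0.084, Socs3 from -0.13 to 0.14, Nfkbia from -0.10 to 0.057 and Nfkbiz from -0.17 to 0.041. Socs3 was -0.030 with library totals and -0.15 with equal weight per zone. In mural cells Nfkbia changed sign to 0.32 in pericyte-like cells with few endothelial UMIs and to 0.15 in smooth muscle-like cells with at most 5% mitochondrial UMIs. The former rested on 9, 32, 39 and 27 cells per library and the latter on 6, 22, 11 and 14. The cause was not tested.

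Counts of called genes moved more. Endothelial calls were 333 without a filter and 169 to 457 with a library left out. Pericyte calls were 13 without a filter, 6 at 5% mitochondrial UMIs, 5 with few endothelial UMIs and 6 to 41 with a library left out, and 1 of the 9 genes, Cebpb, was called without a filter (adjusted p 0.00244) and at 5% (adjusted p 0.0442), and 0 to 1 with a library left out. Smooth muscle calls were 14 without a filter, 1 in DESeq2, 7 with few endothelial UMIs and 1 to 144 with a library left out, with 1 and 0 to 1 of the 9 in the last 2. A finer zone clustering gave 51 arterial interaction calls, 2 of them among the 9, and 94 venous ones, against 15 to 41 (0 to 2 of the 9) and 4 to 12 (0 of the 9) with a library left out. A fit with 1 library in a diet assumes that it varies like the other diet's libraries.

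The Lcn2 share term was 3.95 in endothelial-like and 5.38 in venous-like cells at 2000 UMIs, 2.75 and 2.92 without thinning, 4.26 and 4.36 for at least 2 UMIs, and 3.36 to 3.67 and 3.51 to 4.53 with a library left out. Without control diet 2 the venous term has no value, since control diet 1 is at 0.

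Libraries of both diets carry the numbers 1 and 2, and the labels do not say that equal numbers mark a shared batch. Deviations of same-numbered libraries correlated at 0.0923 in endothelial-like, 0.110 in pericyte-like and -0.0878 in smooth muscle-like cells. With 2 libraries a diet, deviations within a diet mirror each other, so these values cannot decide whether equal numbers mark a pair. With the replicate block 189 endothelial and 9 pericyte genes were called, and 1 of the 9 genes, Cebpb, in pericyte-like cells (adjusted p 0.0488).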

Other observations

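Free RNA, read from barcodes under 100 UMIs, held Lrg1 at 0, 0.521, 14 and 5.14 CPM in control diet 1 and 2 and PLX5622 diet 1 and 2, the same order of libraries as in endothelial-like cells. Of the 12 genes whose diet difference differed between venous-like and capillary-like cells, 2 came from the pathway lists. Fth1, the heavy chain of the iron store ferritin, had a difference larger in venous-like cells by 0.91 ± 0.073 (log2, SE, edgeR adjusted p 4.0e-18), and Icam1, an adhesion molecule, had a term of -0.77 ± 0.12 (edgeR adjusted p 1.9e-05). Both genes were named after their values were seen, and Icam1 is among the markers that named the venous-like cells.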
